A study of Mus musculus with 6 samples.

Results

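The heat shock proteins and their DnaJ co-chaperones were followed in ribosome-bound RNA from a genetically labelled cell population of mouse cortex, in mice that drank fluoxetine or vehicle. Members were genes whose single symbol in the array's annotation names an HSP70 or HSP110 protein (Hspa with a number, Hsph1), an HSP90 protein, the chaperonin Hspd1 or its partner Hspe1, a small heat shock protein (Hspb with a number) or a DnaJ protein of class A, B or C. This gave 70 genes, each read from the probe set of highest mean over the 6 arrays. Of these, 57 had a mean intensity of 50 or more in at least 1 group and were kept, out of 10830 genes kept in all. The kept members were 9 HSP70, 3 HSP110, 2 HSP90, 2 chaperonin, 5 small heat shock, 4 Dnaja, 9 Dnajb and 23 Dnajc genes.

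The fluoxetine-titled group and the vehicle-titled group had 3 arrays each, numbered 1 to 3 in both. All mice carried the Glt25d2 bacTRAP transgene of 1 line, DU9, and had been backcrossed from FVB to C57BL/6 for 3 to 5 generations. In this method a tagged ribosomal protein, expressed from a bacterial artificial chromosome under the Glt25d2 driver, lets ribosomes of the labelled cells be pulled down with the messages they carry. Fluoxetine-titled mice drank 0.167 mg/ml fluoxetine, a selective serotonin reuptake inhibitor, in 1% saccharine for 15 to 18 days, and vehicle-titled mice drank 1% saccharine alone. Age and the number of mice per purification are not given in the labels used here. The titles, source names and treatment fields agree on each array's group, but the description field names the opposite treatment for every array. If the description were right, every sign of a treatment difference given below would turn, and no size or test would change.

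HSP70 proteins bind unfolded stretches of other proteins and release them in a cycle driven by ATP. DnaJ proteins, also called HSP40, bring clients to HSP70 and trigger its ATPase, HSP110 proteins exchange its nucleotide, and HSP90 takes over many clients at a later step. In neurons this machinery also works at synapses, where Hspa8 strips clathrin from vesicles with the help of Dnajc6 and keeps release proteins folded with Dnajc5.

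The labelled population was checked against 6 measured markers of subcortically projecting layer 5 neurons, and all 6 were kept. The lowest mean was 841.8, that of Colgalt2. All 9 astrocyte markers, all 7 microglia markers, all 6 interneuron markers and 8 of 8 measured oligodendrocyte markers also reached 50. So did 5 of 5 measured markers of other projection neurons. The arrays thus held messages that mark other cortical cells. On fluoxetine-titled arrays Cnp of oligodendrocytes, Gad1 of interneurons and Aldoc of astrocytes averaged 18146, 17752 and 14443. These lay above each layer 5 marker but Pcp4 (27789). The brightest microglia marker, Ctss, averaged 1145, and Tle4 of other projection neurons 2596. Probe sets of 1 gene also differed in intensity: those kept for Dnajb6 averaged 8615, 264 and 216 on fluoxetine-titled arrays. The order of intensities of different genes therefore does not rank their messages by amount. The check shows layer 5 messages present and not that they prevailed. Of 7 vessel markers, Cldn5, Acta2, Pdgfrb and Rgs5 reached 50 and Pecam1, Flt1 and Vwf did not, nor did the erythrocyte markers Hba-a1 and Alas2. The summed intensity of the 9 astrocyte markers ran between 24955 and 32327 on fluoxetine-titled arrays and between 18267 and 31275 on vehicle-titled ones, with the lowest value on vehicle-titled array 3. That array was also lowest in the summed oligodendrocyte and microglia markers. The sum of all 7 vessel markers, with the 3 below 50, separated the groups, at 1727 to 1957 on fluoxetine-titled and 1235 to 1606 on vehicle-titled arrays. Of the 4 kept, only Acta2 of vascular smooth muscle lay above on all fluoxetine-titled arrays. It differed by 0.68 ± 0.19, at an unadjusted limma p of 0.00843 and an adjusted p of 1.00. In Cldn5, Pdgfrb and Rgs5 the groups overlapped. The part of vessel messages in the treatment differences given below was not tested. In such pulled-down tissue RNA, fewer cells of a type and less message per cell cannot be told apart. Arrays of equal number resembled each other: their deviations from the group means correlated at 0.74, 0.60 and 0.50 for numbers 1, 2 and 3. The labels do not say what a number stands for.

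No heat shock or DnaJ gene differed between fluoxetine-titled and vehicle-titled arrays past the threshold. Limma's moderated test, adjusted by the Benjamini-Hochberg method over 19073 probe sets, called 0 of 57 members at an adjusted p of 0.05, beside 0% of all genes. At an unadjusted p under 0.05 it called 0 of 57 members, beside 0.591% of all genes. With the replicate number as a block, it again called 0 members after adjustment, and 1 of 57 at an unadjusted p under 0.05 (Dnajc21), beside 3.41% of all genes. The smallest adjusted p of any probe set was 1.00 without the block and 0.993 with it.

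The differences were also small in size. The median log2 difference over the 57 members, fluoxetine-titled minus vehicle-titled, was -0.013, against -0.0068 over all 10830 genes. Members with a negative difference numbered 31, and 26 were positive, while 52.2% of all genes were negative. The 95% interval lay within a 2-fold change either way for 54 of 57 members, or 94.7%, against 96.0% of all genes. The 3 exceptions were Dnajc1, Dnajc21 and Hspb1, whose values spread widely between array numbers. With the replicate number as a block, all 57 intervals lay within 2-fold. These intervals give the range of differences compatible with the values and do not show that the groups were alike.

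Within pairs of equal number, 6 of 57 members (10.5%) were higher on the fluoxetine-titled array in all 3 pairs, beside 10.9% of all genes. Another 8 (14.0%) were lower in all 3 pairs, beside 13.1% of all genes. In no member did the fluoxetine-titled arrays all lie above or all below the vehicle-titled ones, beside 1.63% and 1.98% of all genes. These shares are near those of all genes.

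**Figure D1:**
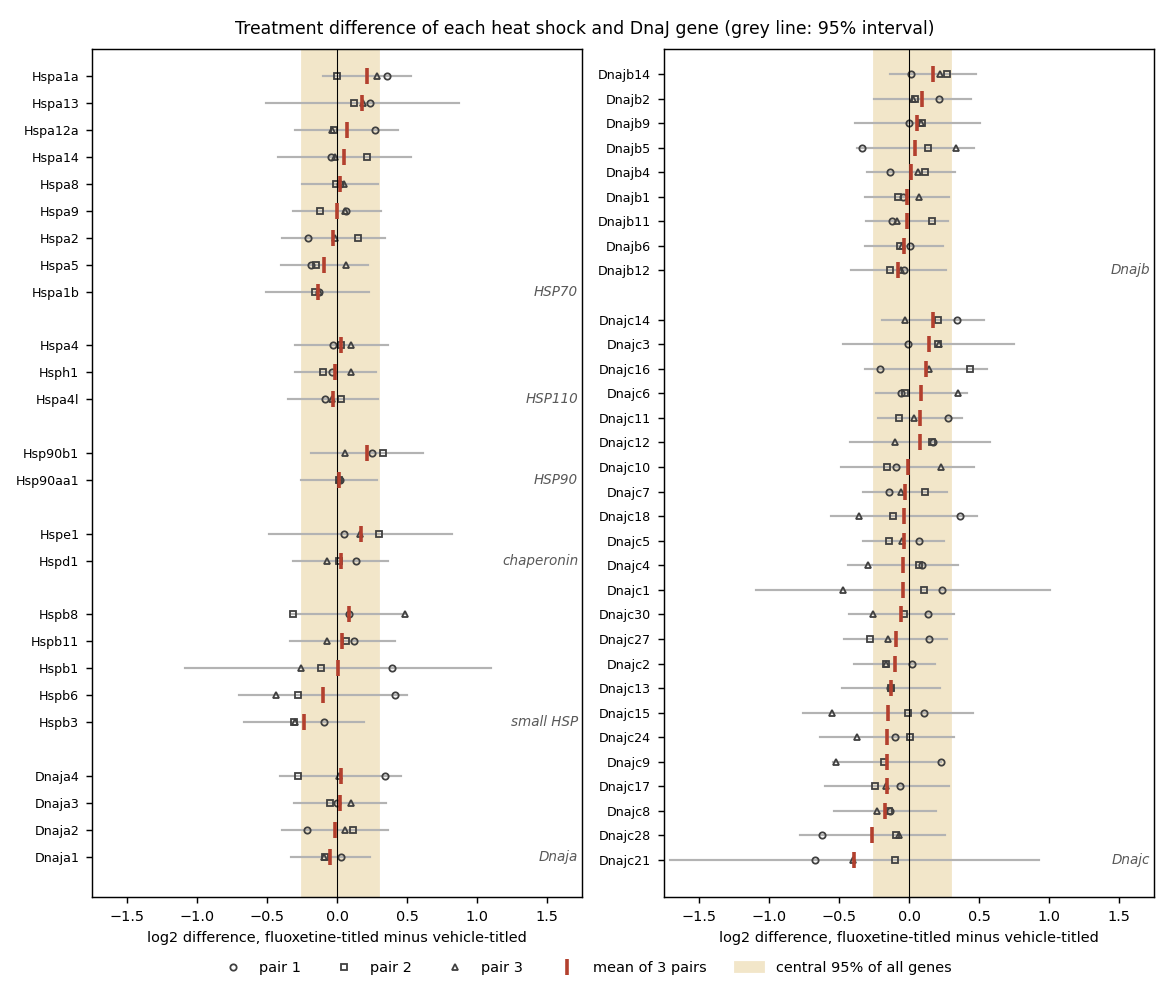
Log2 difference of fluoxetine-titled minus vehicle-titled intensity for each of the 57 members, by family. Open symbols are the 3 pairs of equal array number, red ticks their mean, grey lines 95% intervals from limma, and the shaded band, from -0.25 to 0.30, holds the central 95% of all 10830 genes. All but 2 means lie inside the band, and every interval crosses 0.

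HSP70 genes held the brightest probe set of the group, and 5 of the 9 kept had a positive treatment difference, with a family median of 0.019. Intensities follow in the order of array numbers 1, 2 and 3. Hspa8, the constitutive cytosolic HSP70 of neurons, had 44341, 42503 and 43121 on the fluoxetine-titled arrays, against 43658, 42845 and 41770.4 on the vehicle-titled ones. The ranges overlapped, and the log2 difference was 0.019 ± 0.12 (SE). SEs of treatment differences are from the fit without the replicate block unless stated, so they include the spread between array numbers. Hspa5, the HSP70 of the endoplasmic reticulum, had 8889.9, 10014 and 9803 on the fluoxetine-titled arrays, against 10107, 11143 and 9377 on the vehicle-titled ones. The vehicle-titled array was the higher one in pairs 1 and 2 and the lower one in pair 3, with a mean difference of -0.092 ± 0.13. Hspa9, the mitochondrial HSP70, had 8061, 8372 and 7708 on the fluoxetine-titled arrays, against 7727, 9109 and 7411 on the vehicle-titled ones, and the ranges overlapped at a mean difference of -0.0013 ± 0.13.

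The stress-inducible pair Hspa1a and Hspa1b is the usual readout of a heat shock response. Hspa1a had 1008, 815 and 974 on the fluoxetine-titled arrays, against 787, 816 and 799.6 on the vehicle-titled ones. Fluoxetine-titled arrays 1 and 3 stood above all vehicle-titled arrays and array 2 did not, so the groups overlapped. The difference of 0.21 ± 0.13 was the highest among the members on the probe sets used, at an unadjusted limma p of 0.155. Kept probe sets that were not used reached 0.38 for Hspa8, 0.27 for Dnajc18 and 0.23 for Dnaja1. Hspa1b had 4286, 3453 and 3459.6 on the fluoxetine-titled arrays, against 4698, 3845 and 3794 on the vehicle-titled ones. It was lower on the fluoxetine-titled array in each pair, with log2 differences of -0.13, -0.15 and -0.13, a mean of -0.14 ± 0.16 and overlapping groups. The array's probe sets for these neighbours may not tell their messages apart, because the genes are near-identical copies on chromosome 17, so values of either are uncertain. Their promoters are alike too. In the RefSeq windows of GRCm38.p6, which run from 250 bases before to 50 after the annotated start, they differ at 4 of 300 bases. The windows are shown to make that likeness visible, 5′ to 3′ on the strand of the gene, at chr17:34972107-34972406 on the minus strand for Hspa1a and chr17:34959189-34959488 on the minus strand for Hspa1b. Capitals mark the bases that differ.
Hspa1a: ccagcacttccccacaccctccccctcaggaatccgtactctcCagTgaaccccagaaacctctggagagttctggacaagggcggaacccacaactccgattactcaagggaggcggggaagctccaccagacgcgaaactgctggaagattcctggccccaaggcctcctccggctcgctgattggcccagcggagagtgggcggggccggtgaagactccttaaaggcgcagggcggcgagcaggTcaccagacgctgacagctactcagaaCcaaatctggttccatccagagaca
Hspa1b: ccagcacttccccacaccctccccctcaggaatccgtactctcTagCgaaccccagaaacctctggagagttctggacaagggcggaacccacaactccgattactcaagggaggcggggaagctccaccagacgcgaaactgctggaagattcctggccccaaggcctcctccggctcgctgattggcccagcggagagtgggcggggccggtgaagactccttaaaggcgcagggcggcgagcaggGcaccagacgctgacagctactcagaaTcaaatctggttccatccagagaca

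The other HSP70 genes followed no common direction. Hspa13, a microsomal ATPase also called Stch, had 2309, 1543 and 1231 on the fluoxetine-titled arrays, against 1959, 1423 and 1084 on the vehicle-titled ones. It was higher on the fluoxetine-titled array in every pair, by 0.24, 0.12 and 0.18, but differed more between array numbers than between treatments. The mean was 0.18 ± 0.29 without the replicate block. With the block the SE was 0.10, at an unadjusted limma p of 0.118. Hspa14, a ribosome-associated HSP70, had 509.6, 503 and 359 on the fluoxetine-titled arrays, against 525, 433 and 364 on the vehicle-titled ones and overlapping groups, at a difference of 0.051 ± 0.20. Hspa12a and Hspa2 differed by 0.069 and -0.026. The testis-type Hspa1l and the endothelial Hspa12b stayed below 50, with a higher group mean of 8.08 for Hspa1l and of 15.7 for Hspa12b.

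The 3 HSP110 genes, which exchange the nucleotide of HSP70, differed by 0.031 or less in either direction on the probe sets used. Over all kept probe sets, Hspa4 ran from -0.23 to 0.063 and Hspa4l from -0.16 to -0.0053. Hsph1 ran from -0.026 to -0.013. Hsph1 had 20103, 20814 and 20747 on the fluoxetine-titled arrays, against 20619, 22317 and 19378 on the vehicle-titled ones, and fluoxetine-titled arrays fell inside the range of the vehicle-titled ones. Hspa4 had 4582, 5244 and 4452 on the fluoxetine-titled arrays, against 4679, 5152 and 4164 on the vehicle-titled ones, at a difference of 0.031 ± 0.14. Hspa4l had 3216, 3284 and 2809.7 on the fluoxetine-titled arrays, against 3412, 3216 and 2877 on the vehicle-titled ones, at -0.030 ± 0.14. In both genes the ranges of the groups overlapped over most of their length.

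Both HSP90 genes were positive on the probe set used. Each also had a kept probe set with a negative difference, the lowest at -0.13 for Hsp90aa1 and -0.15 for Hsp90b1. Hsp90aa1, the inducible cytosolic HSP90, had 26382, 26158 and 25672 on the fluoxetine-titled arrays, against 25998, 25946 and 25485 on the vehicle-titled ones, so its 6 values were nearly level and the difference was 0.014 ± 0.11. Hsp90b1, the HSP90 of the endoplasmic reticulum also called Grp94, had 7542, 6764 and 5389 on the fluoxetine-titled arrays, against 6364, 5380.1 and 5187 on the vehicle-titled ones. It was higher on the fluoxetine-titled array in each pair, by 0.25, 0.33 and 0.055, and averaged 6565 ± 1090.1 on fluoxetine-titled and 5644 ± 631 on vehicle-titled arrays (SD, n = 3 each). The groups overlapped, and the difference of 0.21 ± 0.17 had an unadjusted limma p of 0.255. The constitutive partner Hsp90ab1 is not named by a single-symbol probe set in the annotation used here and was not analysed.

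Hspd1 and Hspe1 form the barrel and lid of the mitochondrial chaperonin and share a promoter. Hspd1 had 6844, 6127 and 5307 on the fluoxetine-titled arrays, against 6232, 6083 and 5576 on the vehicle-titled ones, with overlapping groups and a difference of 0.025 ± 0.14. Hspe1 had 3482, 2602 and 4338 on the fluoxetine-titled arrays, against 3373, 2119.8 and 3883 on the vehicle-titled ones. The fluoxetine-titled array was higher in all 3 pairs, by 0.046, 0.30 and 0.16, while both arrays numbered 2 were low and both numbered 3 were high. The mean difference was 0.17 ± 0.28, with an SE of 0.11 under the replicate block.

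Small heat shock proteins bind denatured proteins without ATP and hold them for HSP70. Hspb1, the main inducible member, had 463, 144 and 238 on the fluoxetine-titled arrays, against 353, 156 and 285 on the vehicle-titled ones. It was high on both arrays numbered 1 and low on both numbered 2, and the treatment difference was 0.0048 ± 0.46, with an SE of 0.15 under the replicate block. Hspb3, known mainly from muscle, had 178, 122 and 130.5 on the fluoxetine-titled arrays, against 189.9, 152 and 161 on the vehicle-titled ones. The fluoxetine-titled array was lower in every pair, with log2 differences of -0.096, -0.31 and -0.30, the groups overlapped through array 1, and the mean was -0.24 ± 0.18 at an unadjusted limma p of 0.237. Hspb6, near the lower bound of 50, had 119, 63.8 and 64.9 on the fluoxetine-titled arrays, against 89.9, 77.3 and 87.7 on the vehicle-titled ones. Pair 1 was positive and pairs 2 and 3 were negative, with a mean of -0.10 ± 0.25. Hspb8, a partner of the co-chaperone Bag3, and Hspb11 differed by 0.085 and 0.038. Hspb2, Hspb7 and Hspb9 had a higher group mean of 18.1, 8.55 and 6.13 and were not tested.

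Among the 4 Dnaja and 9 Dnajb genes, the family medians were 0.00043 and 0.013 on the probe sets used. Over all kept probe sets, Dnaja1 ran from -0.049 to 0.23 and Dnaja2 from -0.21 to -0.016. Dnaja3 ran from 0.017 to 0.20 and Dnaja4 from -0.17 to 0.024. Values below are from the probe sets used. Dnaja1, a cytosolic partner of Hspa8, had 11254, 11393 and 11517 on the fluoxetine-titled arrays, against 11041, 12080.0 and 12266 on the vehicle-titled ones, at -0.049 ± 0.12. Dnaja4 had 1952, 1748 and 2239 on the fluoxetine-titled arrays, against 1542, 2127 and 2216 on the vehicle-titled ones, with pairs of 0.34, -0.28 and 0.015 and a mean of 0.024 ± 0.18. Their differences had opposite signs, and in both genes the groups overlapped. Dnajb1, the stress-inducible partner of HSP70, had 7111, 6276 and 7147 on the fluoxetine-titled arrays, against 7322, 6617 and 6794 on the vehicle-titled ones, at -0.015 ± 0.13. Dnajb2, a neuronal DnaJ protein with ubiquitin-binding motifs, had 1483, 1685 and 1624 on the fluoxetine-titled arrays, against 1282, 1635 and 1593 on the vehicle-titled ones. It was higher in every pair, by 0.21, 0.043 and 0.028, with a mean of 0.094 ± 0.15. Dnajb14, a DnaJ protein anchored in the endoplasmic reticulum, had 1481, 1529 and 1422 on the fluoxetine-titled arrays, against 1464, 1270.4 and 1221 on the vehicle-titled ones. It too was higher in every pair, at a mean of 0.17 ± 0.13, and the groups overlapped because vehicle-titled array 1 reached the range of the fluoxetine-titled ones. Dnajb13, Dnajb3, Dnajb7 and Dnajb8 stayed below 50, with a group mean of at most 11.6.

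Of 23 Dnajc genes, 17 were negative and 6 positive, where 52.2% of all genes were negative, and the family median was -0.043. Each member was tested in the fit across all probe sets, and 0 of 23 passed adjustment. None was higher and 5 were lower on the fluoxetine-titled array in all 3 pairs, beside 10.9% and 13.1% of all genes. The 5 were Dnajc8, Dnajc13, Dnajc17, Dnajc21 and Dnajc28. These counts describe the family, and their departure from all genes was not tested.

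Dnajc21, a factor of ribosome maturation, had 119, 478 and 306 on the fluoxetine-titled arrays, against 189, 514 and 405 on the vehicle-titled ones. Both arrays numbered 1 were far below the other 4, and within pairs the fluoxetine-titled array was the lower one, with log2 differences of -0.67, -0.10 and -0.40. The mean of -0.39 ± 0.56 had an unadjusted limma p of 0.505, and with the replicate block an unadjusted p of 0.0228 and an adjusted p of 0.993. Leaving out fluoxetine-titled array 1 turned its sign, to 0.17. Dnajc28 had 66.8, 116 and 101 on the fluoxetine-titled arrays, against 103, 124 and 107 on the vehicle-titled ones. The fluoxetine-titled array was lower in each pair, most in pair 1, with pairs of -0.62, -0.091 and -0.073 and a mean of -0.26 ± 0.22. Dnajc17, Dnajc8 and Dnajc13 differed by -0.16 ± 0.19, -0.17 ± 0.15 and -0.13 ± 0.15.

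The Dnajc genes of the synapse did not pass the test either. Dnajc5, which encodes cysteine-string protein of synaptic vesicles, had 7355, 6314 and 6684 on the fluoxetine-titled arrays, against 7007, 6966 and 6911 on the vehicle-titled ones, at -0.040 ± 0.12. Dnajc6, the neuronal auxilin, had 6473, 6255 and 6919 on the fluoxetine-titled arrays, against 6743, 6394 and 5429 on the vehicle-titled ones, at 0.086 ± 0.14. Vehicle-titled array 3 was the lowest of the 6 for Dnajc6, and the other 5 overlapped. Dnajc12, a partner of the hydroxylases that make serotonin and dopamine, had 903, 616 and 737 on the fluoxetine-titled arrays, against 803, 549 and 792 on the vehicle-titled ones, at 0.077 ± 0.21. Dnajc5b, Dnajc5g, Dnajc22 and Dnajc25 stayed below 50.

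The threshold of 50 separated the members cleanly. The dimmest kept were Dnajc1, Hspb6 and Dnajb12, with a higher group mean of 66.0, 85.0 and 95.3. The brightest left out were Hspb2 at 18.1 and Hspa12b at 15.7. No kept member had 1 group under 50, so none was kept through 1 group alone.

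No partner of the wider chaperone network passed the treatment test. Of 75 partner genes listed, 62 were kept, 27 with a positive and 35 with a negative difference, at a median of -0.016. Limma called 0 of them after adjustment and 0 at an unadjusted p under 0.05. With the replicate block, 2 of 62 reached an unadjusted p under 0.05 (Unc45a at 0.0319 and Creld2 at 0.0261), beside 3.41% of all genes, and 0 an adjusted one. Among 20 HSP90 co-chaperones, with a median of 0.021, the myosin chaperone Unc45a had 404, 432 and 424 on the fluoxetine-titled arrays, against 359, 354 and 325 on the vehicle-titled ones. The fluoxetine-titled arrays all lay above the vehicle-titled ones, at a difference of 0.28 ± 0.12 and an unadjusted limma p of 0.0515. Trap1, the mitochondrial HSP90, differed by 0.18 ± 0.19. In all, 3 of 62 partners lay above without overlap (Unc45a, Tomm70a and Cct4), beside 1.63% of all genes, and 0 below, beside 1.98%.

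Of 7 folding factors of the endoplasmic reticulum, 6 had a negative difference, at a median of -0.11, where 52.2% of all genes were negative, and none passed the test. Creld2, a secreted stress-response protein, had 503, 400.1 and 428 on the fluoxetine-titled arrays, against 699, 479 and 489.8 on the vehicle-titled ones and the lowest difference of the partners, -0.31 ± 0.19. Pdia6, a disulphide isomerase, differed by -0.16 ± 0.19. Of the 14 genes of the cytosolic chaperonin TRiC and its feeder prefoldin, at a median of -0.048, Pfdn2 differed by 0.22 ± 0.26 and Pfdn4 by -0.18 ± 0.20. The 18 HSP70 partners had a median of -0.0088, with Grpel2 at -0.17 ± 0.16 and Bag4 at -0.16 ± 0.19. Of the heat shock factors and their regulator, Hsf4 and Hsbp1 were kept, at 0.094 ± 0.19 and 0.023 ± 0.18, while Hsf2 and Hsf5 stayed below 50. Hsf1, the main activator of heat shock genes, was not analysed here. The small heat shock protein Cryab differed by -0.055 ± 0.21.

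More members passed the test for array number than the test for treatment. A moderated F test for replicate number, in a limma model with treatment, called 6 of 57 members (10.5%) at an adjusted p of 0.05, beside 12.9% of all genes, so the share is near that of the array as a whole. The 6 were Hspb1, Hspe1, Hspa13, Dnajc3, Dnajc1 and Dnajc21. At an unadjusted p under 0.05 there were 15. When the test was fitted on all 45037 probe sets with no intensity filter, it called 0 members and 0 probe sets, with 19 members at an unadjusted p under 0.05, so each of these calls rests on the filter. Of the 62 partner genes, 2 were called, Pfdn5 at an adjusted p of 0.0218 and Sgtb at 0.0348.

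Hspb1 showed the widest spread among the small heat shock genes, 463 and 353 on the arrays numbered 1, 144 and 156 on those numbered 2 and 238 and 285 on those numbered 3, fluoxetine-titled array first. Both arrays of a number stood together, and no 2 numbers overlapped. The log2 difference was 1.43 ± 0.18 for number 1 minus 2, 0.63 ± 0.18 for 1 minus 3 and -0.80 ± 0.18 for 2 minus 3, at an adjusted p of 0.0134. Hspe1, in the same layout, had 3482 and 3373 on the arrays numbered 1, 2602 and 2119.8 on those numbered 2 and 4338 and 3883 on those numbered 3. Here number 3 was highest and number 2 lowest, with a difference of -0.81 ± 0.13 for 2 minus 3 and an adjusted p of 0.0242. Hspd1, its partner in the chaperonin, was not called, with an adjusted p of 0.311.

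Hspa13 and Dnajc3, both of the endoplasmic reticulum, were highest on the arrays numbered 1 and lowest on those numbered 3. For Hspa13 the difference of number 1 minus 3 was 0.88 ± 0.12, at an adjusted p of 0.0173. Dnajc3, also called p58IPK and an inhibitor of the stress kinase Perk, had 488 and 491 on the arrays numbered 1, 432 and 374 on those numbered 2 and 314 and 270.2 on those numbered 3. Its difference of number 1 minus 3 was 0.75 ± 0.13, at an adjusted p of 0.0305.

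Dnajc1 and Dnajc21 ran the other way and were lowest on the arrays numbered 1. Dnajc1, a membrane-bound DnaJ protein of the endoplasmic reticulum, had 37.6 and 31.9 on the arrays numbered 1, 86.0 and 79.8 on those numbered 2 and 62.2 and 86.4 on those numbered 3, so number 1 lay below the intensity of 50. Its difference of number 1 minus 2 was -1.26 ± 0.19, at an adjusted p of 0.0176. For Dnajc21 the same difference was -1.73 ± 0.16, at an adjusted p of 0.00598. Its other kept probe set, 1460711_at, was not called, with 169 and 206 on the arrays numbered 1, 210.2 and 245 on those numbered 2 and 201 and 210.0 on those numbered 3, a difference of -0.28 ± 0.13 and an adjusted p of 0.291.

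With 1 array left out at a time, Hspb1 and Dnajc21 stayed under an adjusted p of 0.05 in all 6 fits. Dnajc1 was no longer called without vehicle-titled array 1, at an adjusted p of 0.0718. Hspa13 was no longer called without fluoxetine-titled array 1 or vehicle-titled array 1, Hspe1 without fluoxetine-titled or vehicle-titled array 2, and Dnajc3 in 4 of the 6 fits. The next 4 members by the F test, Dnajc12, Dnajb9, Hspa14 and Dnajc17, had an adjusted p of 0.0673, 0.0730, 0.0761 and 0.0823. Dnajb9, a DnaJ protein of the endoplasmic reticulum, had 2815 and 2819 on the arrays numbered 1, 2091 and 1963 on those numbered 2 and 2256 and 2126 on those numbered 3. Dnajc17 had 427 and 448 on the arrays numbered 1, 299 and 353 on those numbered 2 and 311 and 349.6 on those numbered 3. Both were highest on the arrays numbered 1.

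Markers of several other cell types were also called for array number. These were 4 of 7 microglia markers (Cx3cr1, C1qa, C1qc and Ctss), 3 of 6 interneuron markers (Gad2, Sst and Vip), 2 of 4 kept vessel markers (Pdgfrb and Rgs5), 2 of 9 astrocyte markers (Aqp4 and Slc1a2) and 2 of 8 oligodendrocyte markers (Mog and Sox10), beside 12.9% of all genes. Of the layer 5 markers 0 of 6 were called, and of the kept markers of other projection neurons (Cux1, Cux2, Rorb, Foxp2 and Tle4) 0 of 5. The microglial C1qc had 116 and 122 on the arrays numbered 1, 116 and 112 on those numbered 2 and 46.6 and 29.2 on those numbered 3, lowest on number 3, at an adjusted p of 0.00810. The astrocyte glutamate transporter Slc1a2 had 2207 and 2543 on the arrays numbered 1, 5679 and 4594 on those numbered 2 and 4101 and 3392 on those numbered 3, lowest on number 1, at an adjusted p of 0.0199. The control probe sets of Actb, which sample the 3′ end, the middle and the 5′ end of that message, gave a log2 ratio of 3′ end over middle of 2.17 and 2.28 on the arrays numbered 1, against 1.81 to 1.95 on the other 4. The ratio of 3′ over 5′ end did not set number 1 apart for Actb (2.70 and 3.05, against 2.91 to 3.08), and the Gapdh ratios overlapped too, at 0.88 and 1.25 against 1.23 to 1.63 for 3′ over 5′ end and 0.68 and 0.76 against 0.74 to 0.81 for 3′ end over middle. The part of these in the differences between numbers was not tested.

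**Figure D2:**
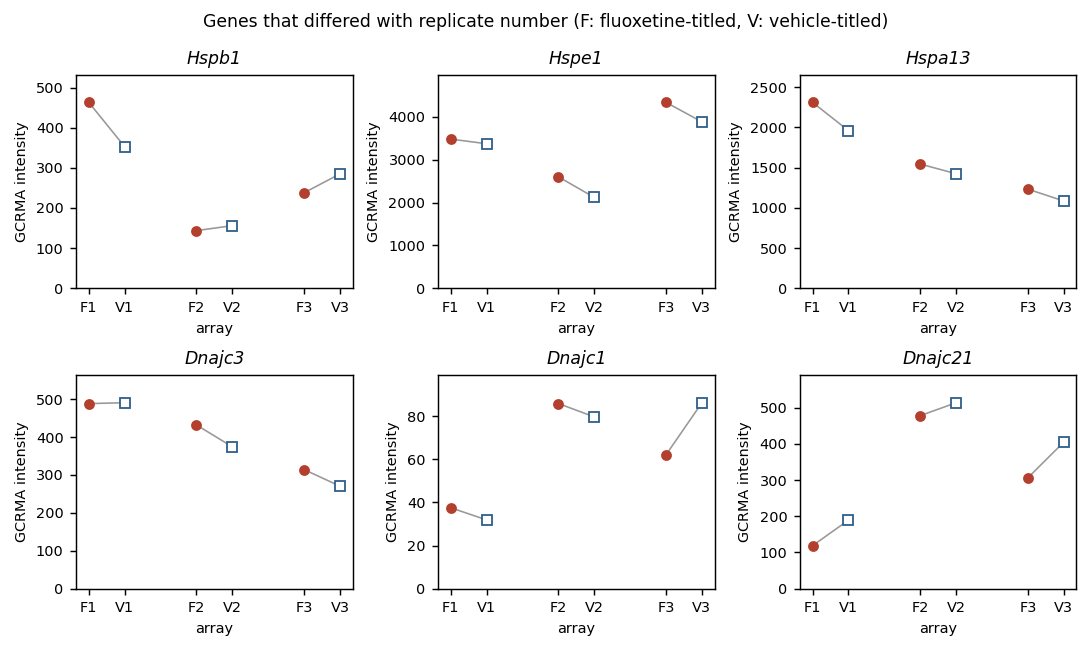
Intensity (GCRMA, linear axis from 0) of the 6 members called for replicate number, on each of the 6 arrays. Circles are fluoxetine-titled and squares vehicle-titled arrays, joined by number. The arrays numbered 1 are the highest for Hspb1, Hspa13 and Dnajc3 and the lowest for Dnajc1 and Dnajc21, while for Dnajc1 the arrays numbered 2 lie within the span of those numbered 3.

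Different probe sets of 1 gene did not always tell the same story about array number. The members had 118 kept probe sets, of which 22 were called for replicate number, or 18.6%, beside 14.8% of all probe sets. The probe set used for each gene was called in 6 of 57 cases. Of the 61 others, 16 were called, or 26.2%, beside 17.7% of the other probe sets of all genes. Counting any kept probe set, 14 members were called. Relative to the mean of numbers 2 and 3, a contrast chosen after the values were seen, 13 of the 22 were lower on number 1 and 9 higher.

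Hsp90aa1 shows how far this went. Its brightest probe set, given above, was level over all arrays. Probe set 1426645_at had 9202 and 9687 on the arrays numbered 1, 20886 and 21434 on those numbered 2 and 18292 and 20352 on those numbered 3, and 1437497_a_at had 11295 and 14183 on the arrays numbered 1, 23941 and 22594 on those numbered 2 and 21453 and 23589 on those numbered 3. Both were lower on the arrays numbered 1 than on any other array, with a log2 difference of number 1 minus the mean of 2 and 3 of -1.10 ± 0.11 for the first and -0.85 ± 0.13 for the second.

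Hsp90b1 had the same split, with 1438040_a_at at 572 and 701 on the arrays numbered 1, 2045 and 1627 on those numbered 2 and 1237 and 1745 on those numbered 3 while the probe set used was not called, at an adjusted p of 0.157. In Hspa13 the split reached opposite directions: 1453172_at had 306 and 282 on the arrays numbered 1, 642 and 897 on those numbered 2 and 698 and 645 on those numbered 3, lowest on number 1, where the probe set used was highest. Dnajc3 did likewise through 1449372_at, with 99.4 and 113 on the arrays numbered 1, 273 and 265 on those numbered 2 and 239.8 and 236 on those numbered 3. These were the 2 members with probe sets called in opposite directions, out of 39 with more than 1 kept probe set (5.13%, beside 2.36% of 4406 such genes).

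The widest fall on number 1 among the member probe sets was that of 1448794_s_at for Dnajc2, a ribosome-associated DnaJ protein, with 222 and 353 on the arrays numbered 1, 1586 and 1144 on those numbered 2 and 1249 and 1302 on those numbered 3. Its partner 1417657_s_at had 1335 and 1316 on the arrays numbered 1, 1347 and 1513 on those numbered 2 and 1338 and 1501 on those numbered 3 and showed no such step. In all, 10 of the 39 members had at least 1 probe set called and at least 1 not (25.6%, beside 29.3% of such genes), and all kept probe sets of Hspb1, Hspe1 and Hspa13 were called. The probe positions along each message were not used here, so the part of position in these splits was not tested.

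Probe sets of 1 gene also gave different treatment values, and the difference between probe sets was not tested. Of the 39 members with several kept probe sets, 18 had both positive and negative differences and 21 had 1 sign. The only member probe set without overlap between groups was 1420622_a_at of Hspa8 (1 of 118 above, beside 1.64% of all probe sets, and 0 below, beside 2.01%). It had 26855, 21629 and 20838 on the fluoxetine-titled arrays, against 20647, 16305 and 16323 on the vehicle-titled ones. The fluoxetine-titled array was higher in each pair, by 0.38, 0.41 and 0.35, and the mean was 0.38 ± 0.17 at an unadjusted limma p of 0.0542. With the replicate block the unadjusted p was 0.00697 and the adjusted p 0.993. It was then 1 of 2 among 118 member probe sets at an unadjusted p under 0.05, with that of Dnajc21, beside 4.02% of all probe sets. The other kept Hspa8 probe sets, 1455789_x_at and 1420623_x_at, differed by 0.019 and 0.053. In the array's naming, x marks probe sets with probes that also match other sequences, and a marks those shared by transcripts of 1 gene.

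**Figure D3:**
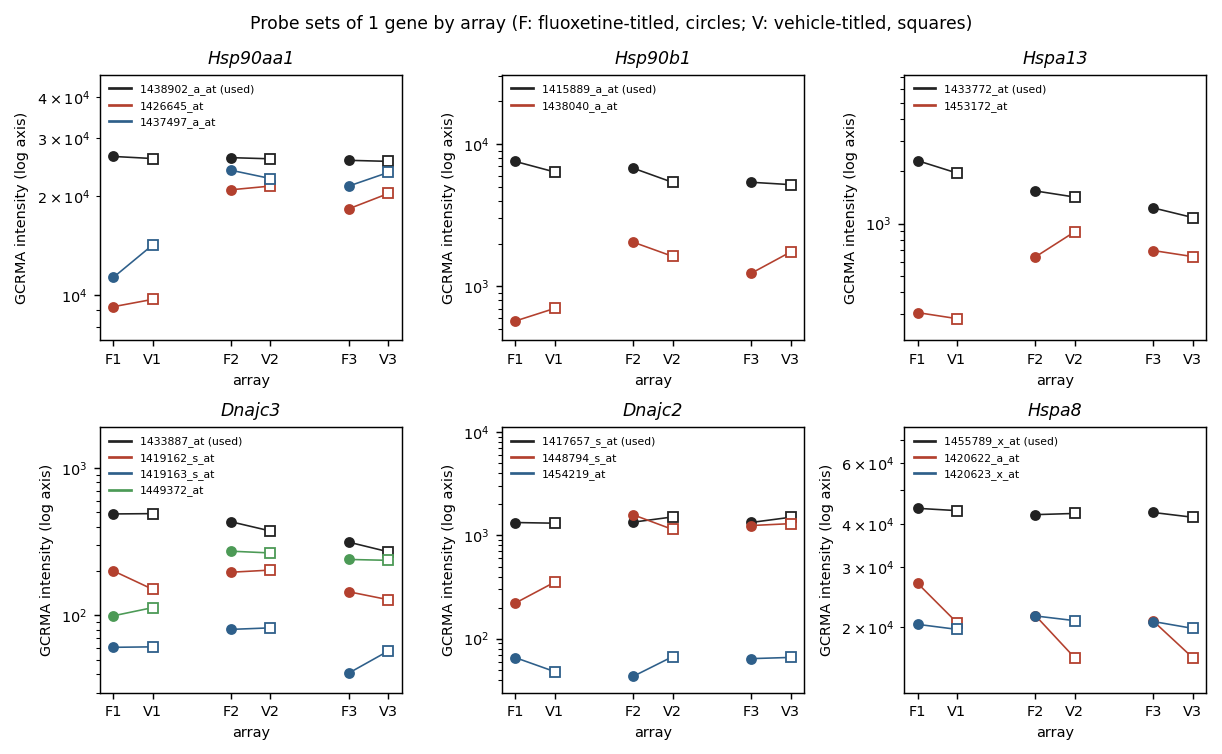
Intensity (GCRMA, log axis) of every kept probe set of 6 members on each array. Each colour is 1 probe set, circles are fluoxetine-titled and squares vehicle-titled arrays, joined by number. For Hsp90aa1, Hsp90b1, Hspa13, Dnajc3 and Dnajc2 at least 1 probe set drops on the arrays numbered 1 while another does not, and for Hspa8 1420622_a_at alone separates the treatments.

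Heat shock factors bind repeats of the letters GAA and TTC in alternating direction. Promoter windows of 300 bases (RefSeq, GRCm38.p6) were found for 47 of the 57 members and searched on both strands for 2 such units spaced by 2 bases, that is GAANNTTC or TTCNNGAA. At least 1 was present for 15 of 47 members, or 31.9%, beside 17% of 27025 genes. Overlapping runs of 3 alternating units were present for 4 of 47 (Hspd1, Hspe1, Hsph1 and Dnajb6), or 8.51%, beside 0.662% of all genes. A gene counted if any of its windows matched, and genes differ in their number of windows. By window, 2 units were present in 26.6% of 64 member windows, beside 15.1% of all 32851. Runs of 3 were present in 9.38%, beside 0.603%. Neither count is of separate sites: Hspd1 and Hspe1 share the same run, and the windows of Hspa1a and Hspa1b are near-identical. A match is a description of the letters and not a measured site.

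Of the 6 members called for replicate number, 5 had a window and 2 of these held an element, Hspb1 and Hspe1. Hspe1 shares 285 bases of its window with Hspd1, and so the same elements, while Hspd1 was not called for replicate number. Hsph1 held elements and was not called either, with an adjusted p of 0.777. The windows of Hspb1 and Hspe1 are shown as the elements of called genes, and that of Hsph1 as those of a gene that was not called. They are 5′ to 3′ on the strand of the gene, with elements in capitals, at chr5:135887669-135887968 on the plus strand for Hspb1, chr1:55087898-55088197 on the plus strand for Hspe1 and chr5:149636287-149636586 on the minus strand for Hsph1, which has another window not shown.
Hspb1: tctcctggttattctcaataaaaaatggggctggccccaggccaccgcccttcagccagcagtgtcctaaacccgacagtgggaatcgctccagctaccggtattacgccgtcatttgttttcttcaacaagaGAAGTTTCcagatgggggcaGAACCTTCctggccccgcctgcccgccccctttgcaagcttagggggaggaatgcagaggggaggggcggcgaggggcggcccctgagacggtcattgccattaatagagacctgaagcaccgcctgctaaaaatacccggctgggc
Hspe1: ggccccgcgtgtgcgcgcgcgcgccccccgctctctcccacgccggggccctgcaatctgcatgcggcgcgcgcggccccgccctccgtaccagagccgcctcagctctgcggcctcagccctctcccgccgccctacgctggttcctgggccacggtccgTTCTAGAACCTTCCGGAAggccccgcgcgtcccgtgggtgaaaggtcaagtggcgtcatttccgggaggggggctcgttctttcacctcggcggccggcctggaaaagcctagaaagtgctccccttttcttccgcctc
Hsph1: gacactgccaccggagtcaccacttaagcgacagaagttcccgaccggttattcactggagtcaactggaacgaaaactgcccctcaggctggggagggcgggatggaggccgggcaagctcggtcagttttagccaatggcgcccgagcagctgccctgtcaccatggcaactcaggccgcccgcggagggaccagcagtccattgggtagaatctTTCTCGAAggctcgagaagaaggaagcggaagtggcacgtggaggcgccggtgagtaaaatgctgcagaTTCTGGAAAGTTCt

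**Figure D4:**
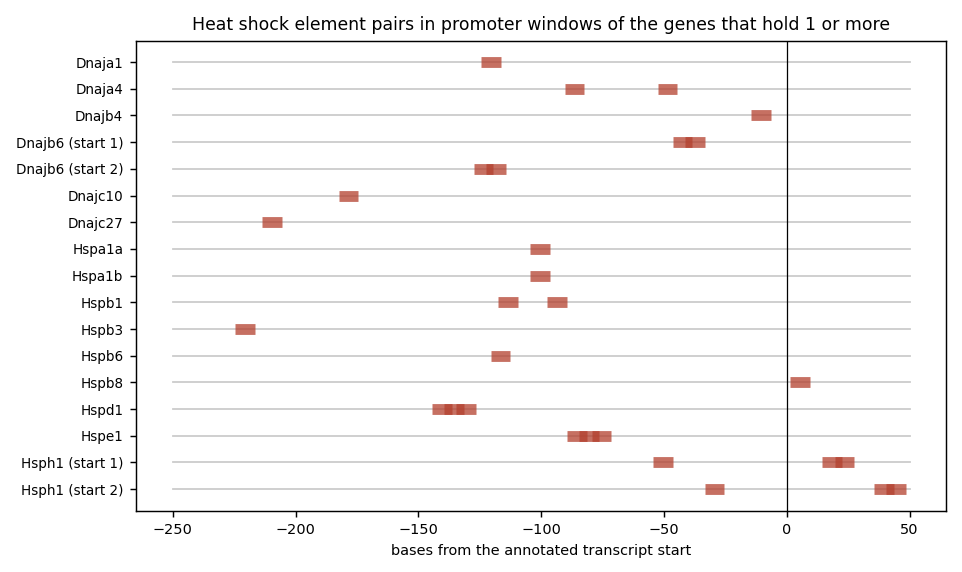
Position of each element pair (red blocks) in the promoter windows of the 15 members that hold at least 1, in bases from the annotated transcript start, with grey lines for the window from -250 to 50. Blocks that overlap mark runs of 3 or more units, seen in Hspd1, Hspe1, Hsph1 and Dnajb6.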

How the data were processed

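RNA bound to tagged ribosomes was measured on 6 Affymetrix mouse arrays, after 2 cycles of amplification from 15 ng per the labels' protocols. The authors deposited GCRMA intensities on a linear scale, 1 for each probe set on each array, as the submitters' processing notes name the method. GCRMA corrects background by probe sequence and normalizes between arrays. Its version is not given in the sources used here. Arrays have no read depth, so the number of arrays limits precision. The labels call the samples independent replicates.

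The difference between fluoxetine-titled and vehicle-titled arrays was tested two-sided on log2 intensities in limma 3.58.1 under R 4.3.3 (lmFit, then eBayes). P-values were adjusted by Benjamini-Hochberg over the 19073 probe sets with a mean of at least 50 in 1 group. The 50 follows the submitters' advice. Control probe sets (64 of 45101) were left out. Of the rest, 34945 had 1 symbol, 932 had several and 9160 were not listed. Entrez identifiers of all 70 members matched the RefSeq table, and 0 symbols changed.

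Arrays of equal title number deviated together (r of 0.74, 0.60 and 0.50), against -0.59 to 0.26 between numbers, and the numbers were used as pairs. Deviations from a group mean cancel within the group, which by itself lowers the values between numbers. No 2 arrays looked like 1 library, with an SD of log2 differences of at least 0.23. Array values were given for the 2 largest differences per family, members of 1 sign in all pairs with a mean of at least 0.2, core chaperones and the 10 lowest F test p-values. For partner lists the 2 largest differences were named. Members and lists were chosen with earlier results of these data known. The code was tested on simulated data. Protein sequences were not used here.

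Alternatives were the replicate block, quantile normalization, median centring, other uses of the intensity of 50, other choices of probe set, and each array or pair left out.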

Additional observations from a re-analysis of the deposited data

How the results depend on the processing

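With the replicate number as a block, 0 probe sets and 0 members were called for treatment, as without it. The block moved the count at an unadjusted p under 0.05 from 64 to 369 among all genes and from 0 to 1 among members, and changed no call after adjustment. The count of members called for treatment was 0 under every alternative run, including each array or pair left out. The median difference over members moved between -0.040 and 0.017 with 1 array or pair left out. Quantile normalization turned the sign of 3 members, of at most 0.013, while the block, median centring and other uses of the intensity of 50 turned 0. With 1 array left out, 8 to 15 members turned, and with 1 pair left out 10 to 14. For replicate number, 2827 probe sets were called. Without the intensity filter 0 probe sets and 0 members were called, so all 6 calls were lost, and the cause was not tested. Leaving out 1 array gave 785 to 3586 probe sets and 4 to 8 members, with 785 without fluoxetine-titled array 1, 1813 without fluoxetine-titled array 2, 1307 without vehicle-titled array 1 and 1770 without vehicle-titled array 2. Counting any kept probe set of a gene gave 14 members, and requiring every one gave 4.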
